A study of Mus musculus with 2 samples.

Results

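The genes described here encode the neurexins, the neuroligins and the leucine-rich repeat transmembrane (LRRTM) proteins, which join the presynaptic and postsynaptic sides of a synapse. All rows whose gene symbol was Nrxn2, Nrxn3, Nlgn1, Nlgn2, Nlgn3, Lrrtm1, Lrrtm2, Lrrtm3 or Lrrtm4 were taken, which gave 9 genes of 55536 annotated genes and 65 transcripts of 141864. The tissue was left cerebral cortex, and total RNA was sequenced. The mice were males of B6CASTF1/J, an F1 hybrid of B6 with CAST, 18 to 20 months old. The series has 1 group of 2 libraries, described as biological replicates 1 and 2, with 300 ng of RNA per library and ERCC spike-ins. No treatment, genotype or age was compared, so the values describe levels, isoforms and the spread between these libraries. Both carry the same donor identifier and separate biosample identifiers, and no label says whether they came from separate animals, so the spread may be technical.

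Neurexins are presynaptic receptors that are made as a long alpha form and a short beta form from separate promoters, and that are spliced at several conserved sites. Neuroligins and LRRTM proteins are postsynaptic ligands of neurexins and recruit receptors and scaffolds to the synapse. Splice site 4 of the neurexins lies in the domain that binds most of these ligands: Lrrtm1 and Lrrtm2 proteins are known to bind forms that lack the site 4 exon, and cerebellins to bind forms that hold it. Neuroligins are themselves spliced at a site A and, in neuroligin 1, at a site B, whose insert is known to weaken binding to alpha-neurexins. Nlgn2 protein is known from inhibitory synapses, Nlgn1 protein from excitatory synapses, and LRRTM proteins mainly from excitatory synapses.

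The alternative exons that separate these isoforms are shown first, because the isoform shares below rest on them. They were read from the GENCODE M21 transcripts (GRCm38), so they are reference sequence and carry no CAST allele. Capitals mark the alternative coding bases, and the lower-case letters are the 12 adjoining bases of the spliced transcript on either side. The splice site 4 exon of Nrxn3, which has 90 bases, lies at chr12:90199147-90199236 (plus strand).
Nrxn3 site 4 exon: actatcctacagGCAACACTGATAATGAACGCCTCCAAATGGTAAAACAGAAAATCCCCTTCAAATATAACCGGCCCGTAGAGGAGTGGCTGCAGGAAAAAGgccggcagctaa

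The site A exons lie at chr3:25920178-25920237 (minus strand) in Nlgn1, at chr11:69830563-69830613 (minus strand) in Nlgn2, and at chrX:101303072-101303131 and chrX:101307075-101307134 (plus strand) in Nlgn3, which has a pair of them. The site B insert of Nlgn1 is an extension of an exon at chr3:25439865-25439891 (minus strand).
Nlgn1 site A exon: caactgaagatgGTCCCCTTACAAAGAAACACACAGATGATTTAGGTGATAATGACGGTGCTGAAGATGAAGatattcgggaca
Nlgn2 site A exon: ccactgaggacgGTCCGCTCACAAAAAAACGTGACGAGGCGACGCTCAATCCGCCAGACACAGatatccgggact
Nlgn3 site A exon nearer the 5′ end: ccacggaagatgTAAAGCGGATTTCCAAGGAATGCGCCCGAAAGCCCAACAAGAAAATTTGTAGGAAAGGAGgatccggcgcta
Nlgn3 site A exon nearer the 3′ end: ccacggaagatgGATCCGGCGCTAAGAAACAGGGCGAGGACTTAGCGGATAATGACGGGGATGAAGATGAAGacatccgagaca
Nlgn1 site B insert: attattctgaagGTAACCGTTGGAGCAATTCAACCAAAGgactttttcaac
The Nlgn1 exon matched the 3′ exon of Nlgn3 at 43 of 60 bases (71.7%) and its 5′ exon at 16 of 60 (26.7%). Over the 9 genes, 16 alternative coding pieces were found in the annotation, and the length of all 16 was a multiple of 3, which keeps the reading frame.

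The depth was 22827996 expected counts in replicate 1 and 29897545 in replicate 2, summed over annotated genes. Both libraries held the excitatory neuron markers of cortex: Slc17a7 was at 581 and 562 TPM (a level corrected for transcript length and depth) and Camk2a at 1173 and 1050.0 TPM. The libraries stood apart in other RNAs. All 10 markers of striatal projection neurons were higher in replicate 2 by the call rule given below, with a median log2 ratio of 1.09, and their summed TPM was 222 in replicate 1 and 438 in replicate 2. Oligodendrocyte markers had a median log2 ratio of 0.20 with 4 of 6 higher, inhibitory neuron markers 0.13 with 4 of 6 higher, microglial markers 0.17 with 3 of 5 higher, and excitatory neuron markers -0.02 with 1 of 6 higher and 3 lower. Nuclear RNAs went the other way: the log2 ratio was -0.70 for Malat1 and -0.76 for Meg3, and transcripts annotated as retained introns had a median of -0.59 over 11753. Over all tested genes, 17.6% were higher and 18.7% lower, and over coding genes with a mean of 1000 counts or more, 35.6% and 21.6%. With spike-in scaling, these shares of all tested genes were 6.34% and 31.5%, and all 10 striatal markers stayed higher. Higher calls then fell to 3 of 6 oligodendrocyte, 2 of 6 inhibitory and 1 of 5 microglial markers. Of the excitatory markers, 0 were then higher and 4 lower. The part of these differences between the libraries in any result below was not tested.

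All 9 genes reached the detection threshold of 1 TPM in both libraries, as did 58.5% of nuclear protein-coding genes. The lowest value of any of them was 23.3 TPM, that of Lrrtm4 in replicate 2. In bulk tissue, fewer cells of a type and less RNA per cell cannot be told apart. Levels below are from the deposited RSEM-layout gene table, with the mean ± SD over the libraries (n = 2).

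Nrxn2 (ENSMUSG00000033768.17), on chromosome 19 at 6418731 to 6544169, plus strand, had the highest level, 256.9 TPM in replicate 1 and 236 TPM in replicate 2 (246 ± 14.7). Nrxn3 (ENSMUSG00000066392.11), on chromosome 12 at 88722876 to 90334935, plus strand, had 122 and 93.3 TPM (108 ± 20.1), the widest gap between libraries among the 9 genes in TPM. Of nuclear protein-coding genes, 99.08% and 98.97% lay below Nrxn2 in the respective libraries and 96.8% and 95.6% below Nrxn3.

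Among the neuroligins, Nlgn2 (ENSMUSG00000051790.15), on chromosome 11 at 69823122 to 69837784, minus strand, was highest with 109 and 92.5 TPM (101 ± 11.4). Nlgn3 (ENSMUSG00000031302.16), on chromosome X at 101299168 to 101325963, plus strand, had 64.9 and 65.4 TPM (65.1 ± 0.297). Nlgn1 (ENSMUSG00000063887.13), on chromosome 3 at 25426215 to 26332460, minus strand, had 47.8 and 41.7 TPM (44.8 ± 4.32). Nlgn2, the neuroligin of inhibitory synapses, was thus above Nlgn1, that of excitatory synapses, in RNA level in both libraries, and Nlgn3 lay between them. The deposited intervals of Nlgn2 and Nlgn1, described below, were apart in both libraries.

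The LRRTM genes formed the lower end. Lrrtm3 (ENSMUSG00000042846.8) had 35.8 and 32.7 TPM (34.3 ± 2.20), and Lrrtm1 (ENSMUSG00000060780.2) had 30.1 and 31.0 TPM (30.6 ± 0.636). Lrrtm2 (ENSMUSG00000071862.3) had 26.4 and 26.8 TPM (26.6 ± 0.276), and Lrrtm4 (ENSMUSG00000052581.13) had 27.0 and 23.3 TPM (25.1 ± 2.64). The 4 genes lay within a narrow band, and Lrrtm2 and Lrrtm4 changed places between the libraries. Summed by family, the 2 neurexins gave 354 ± 34.8 TPM, the 3 neuroligins 210 ± 15.5 TPM and the 4 LRRTM genes 117 ± 3.92 TPM.

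The deposited tables give an interval for each TPM value, whose level is not given in the sources used. In 32 of the 36 pairs of genes, the intervals were apart in both libraries with the same gene above. In the order of mean levels, the neighbours Nrxn3 and Nlgn2, Lrrtm3 and Lrrtm1, and Lrrtm2 and Lrrtm4 did not differ by that rule, nor did Lrrtm1 and Lrrtm4. The highest gene, Nrxn2, was 9.81-fold above the lowest, Lrrtm4.

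The kallisto-layout table, the second deposited quantification, gave higher TPM for all 9 genes and a partly different order. It put Lrrtm3 at 77.2 and 93.8 TPM, above Nlgn1 at 71.7 and 66.1 TPM, which is the reverse of the order in the RSEM-layout table. Transcripts shorter than 1000 bases, none of which holds a complete coding sequence, made up 52.7% and 59.5% of the Lrrtm3 TPM in that table, 28.7% and 19.6% in the RSEM-layout table, and 4.93% and 3.16% of its expected counts. For Nlgn3 the same share of TPM was 45.3% and 48.6% in the kallisto-layout table and 4.82% and 1.48% in the RSEM-layout table. As a share of counts it was 5.07% and 5.69% in the kallisto-layout table and 0.553% and 0.191% in the RSEM-layout table.

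With the transcripts of 1000 bases or more alone, a choice made after seeing these values, both tables gave the same order of the 9 means. Nrxn2 came first (176 ± 11.7 TPM in the RSEM-layout table), then Nlgn2 (92.5 ± 5.76), Nrxn3 (87.5 ± 14.6), Nlgn3 (63.1 ± 1.83), Nlgn1 (44.8 ± 4.32), Lrrtm1 (30.6 ± 0.636), Lrrtm2 (26.6 ± 0.269), Lrrtm3 (25.9 ± 0.537) and Lrrtm4 (21.7 ± 1.93). Lrrtm3 thereby moved from above Lrrtm1 to below it, at 37.3 against 43.5 TPM in the kallisto-layout table, and Nrxn3 moved below Nlgn2, where the means differed by less than the spread of Nrxn3.

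**Figure D1:**
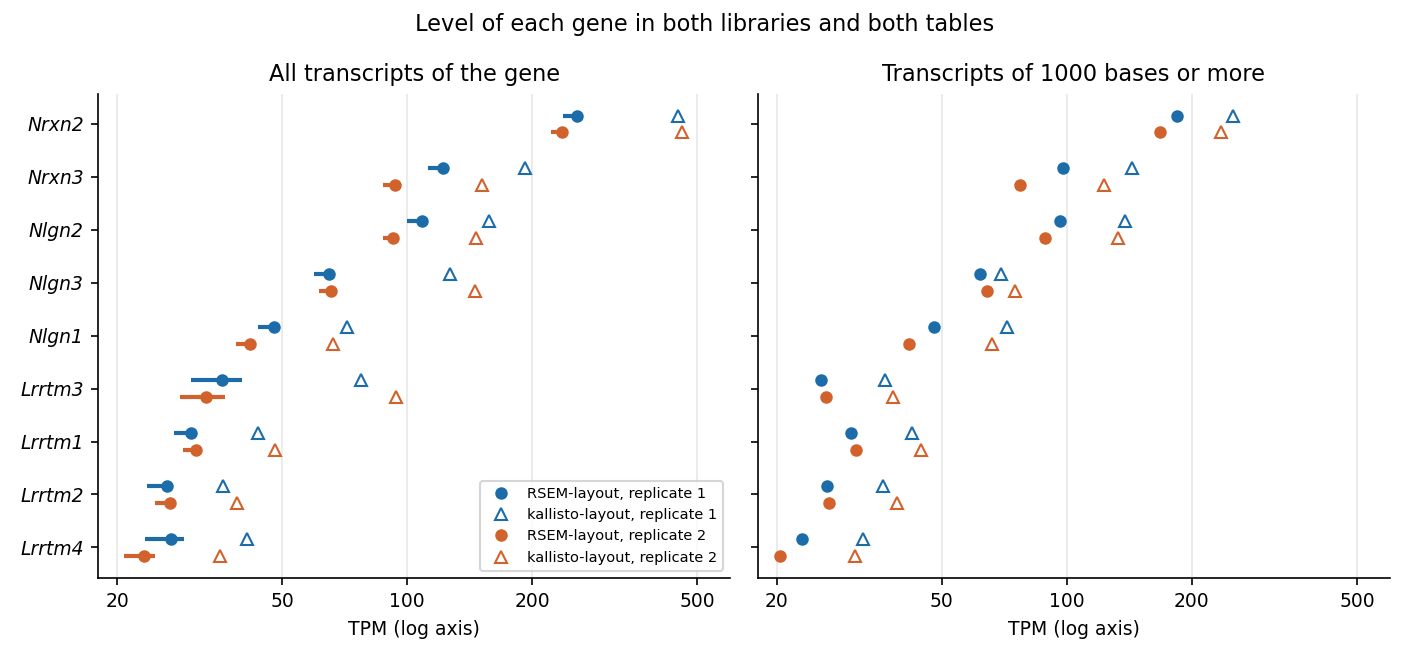
TPM of each gene on a log axis, from all transcripts (left) and from transcripts of 1000 bases or more (right); filled circles are the RSEM-layout table with the deposited interval, which is centred on a posterior mean and so can lie to the left of the point, triangles the kallisto-layout table, blue replicate 1 and orange replicate 2. The step from Lrrtm3 to Nlgn1 has opposite directions in the 2 tables on the left. On the right, the 2 tables share the order of the means but not that of every library. In replicate 1, the triangle of Nlgn1 (71.7 TPM) is above that of Nlgn3 (69.5), and that of Lrrtm3 (36.5) above that of Lrrtm2 (36.0). The circles of replicate 1 have the reverse order in both pairs.

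The neurexins differed in which form led. In Nrxn2, transcripts with the beta start had 116 and 107 TPM and those with the alpha start 59.2 and 56.4 TPM. In Nrxn3, the alpha transcript had 40.4 and 34.4 TPM and the beta transcripts 18.3 and 15.6 TPM. Alpha thus made up 34.2% ± 0.614 of alpha plus beta TPM in Nrxn2 and 68.8% ± 0.00262 in Nrxn3 (n = 2). The kallisto-layout table gave 38.9% ± 0.689 and 67.3% ± 0.790. Alpha transcripts are longer than beta transcripts and give more reads per molecule, and alpha held 46.1% of alpha plus beta expected counts in Nrxn2 and 86.0% in Nrxn3. These alpha shares leave out Nrxn3-208, which has the alpha coding start but is annotated as a target of nonsense-mediated decay. Nrxn3-208 had 9.26 and 7.56 TPM, and counting it as alpha would raise the alpha share of Nrxn3.

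The leading transcript of Nrxn2, Nrxn2-202, was a beta form with 45.1% ± 0.0808 of the gene's TPM. The leading transcript of Nrxn3, Nrxn3-205, was an alpha form with 35.0% ± 2.64. Both led in both libraries and both tables. A processed transcript of Nrxn2 without a coding sequence, Nrxn2-213, 576 bases long, had 19.0% ± 0.485 of TPM, the second largest share of that gene.

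Transcripts with the site 4 exon held most of the TPM of the deciding transcripts of both neurexins, which for Nrxn3 rests in part on the annotation. Shares of an exon are given over the deciding transcripts, those with a coding sequence annotated with or without it, and not over the whole gene. By that measure its share of TPM was 78.1% and 77.9% in Nrxn2 (78.0% ± 0.164) and 70.2% and 73.9% in Nrxn3 (72.1% ± 2.57). The kallisto-layout table gave 78.1% ± 0.0809 and 75.0% ± 2.73. These shares are sums over whole annotated transcripts, including for Nrxn3 transcripts annotated as targets of nonsense-mediated decay, and not counts of reads across the exon's junctions.

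The share with the site 4 exon differed between the alpha and beta forms of Nrxn2. There, 36.0% ± 0.682 of alpha TPM and 99.8% ± 0.00720 of beta TPM came from transcripts with the exon, and the kallisto-layout table gave 44.5% ± 1.10 and 99.5% ± 0.0520. In Nrxn3, the beta share was 15.0% in replicate 1 and 30.6% in replicate 2, and 38.0% and 56.8% in the kallisto-layout table. The only complete alpha transcript annotated for Nrxn3 holds the exon, so its alpha share is 100% by construction and no measurement. The pooled Nrxn3 share above inherits this. That transcript, Nrxn3-205, gave 40.4 of the 56.5 TPM with the exon in replicate 1 and 34.4 of 49.4 in replicate 2. In Nrxn2, a single alpha transcript (Nrxn2-204) and a single beta transcript (Nrxn2-203) lack the exon, and the share rests on those models.

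The same alpha transcript, Nrxn2-204, also set other shares of Nrxn2. A 27-base exon at chr19:6488784-6488810 was present in 36.0% ± 0.682 of TPM and a 72-base exon at chr19:6450528-6450599 in 42.4% ± 0.0191. The kallisto-layout table gave 44.5% ± 1.10 and 54.7% ± 1.14 for these Nrxn2 exons. In Nrxn3, a 27-base exon at chr12:89354453-89354479 was present in 85.2% ± 0.118, and another of 27 bases at chr12:89517906-89517932 in 19.1% ± 1.41. The kallisto-layout table gave 85.6% ± 0.695 and 23.5% ± 0.743 for these Nrxn3 exons.

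The neuroligins differed in their site A. In Nlgn1, transcripts with the exon made up 48.4% and 51.3% of the TPM of the deciding transcripts (49.9% ± 2.04), so forms with and without it were about equal, and the kallisto-layout table gave 51.2% ± 0.503. The site B insert has the same values, because the 2 annotated transcripts that hold one piece hold the other too, and these tables cannot separate the sites. The share was 68.3% and 70.8% of expected counts, and the transcripts with the inserts are the longer ones, up to 11807 bases.

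In Nlgn2, 93.7% and 95.6% of the same measure held the site A exon (94.6% ± 1.36). In Nlgn3, the exon nearer the 5′ end was held by 5.87% and 6.66% (6.27% ± 0.558) and the exon nearer the 3′ end by 51.9% and 50.4% (51.2% ± 1.01). The form without either exon rests in Nlgn3 on Nlgn3-203, an incomplete model of 1852 bases that led the gene with 47.3% ± 2.13 of the gene's TPM but held 16.2% and 17.0% of its expected counts. In Nlgn2 it likewise rests on an incomplete model, Nlgn2-203. All complete coding transcripts of Nlgn2 held the exon, as did those of Nlgn3 for the 3′ exon. By expected counts, the shares were 99.1% and 99.4% for the Nlgn2 exon and 83.7% and 82.9% for the Nlgn3 3′ exon.

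**Figure D2:**
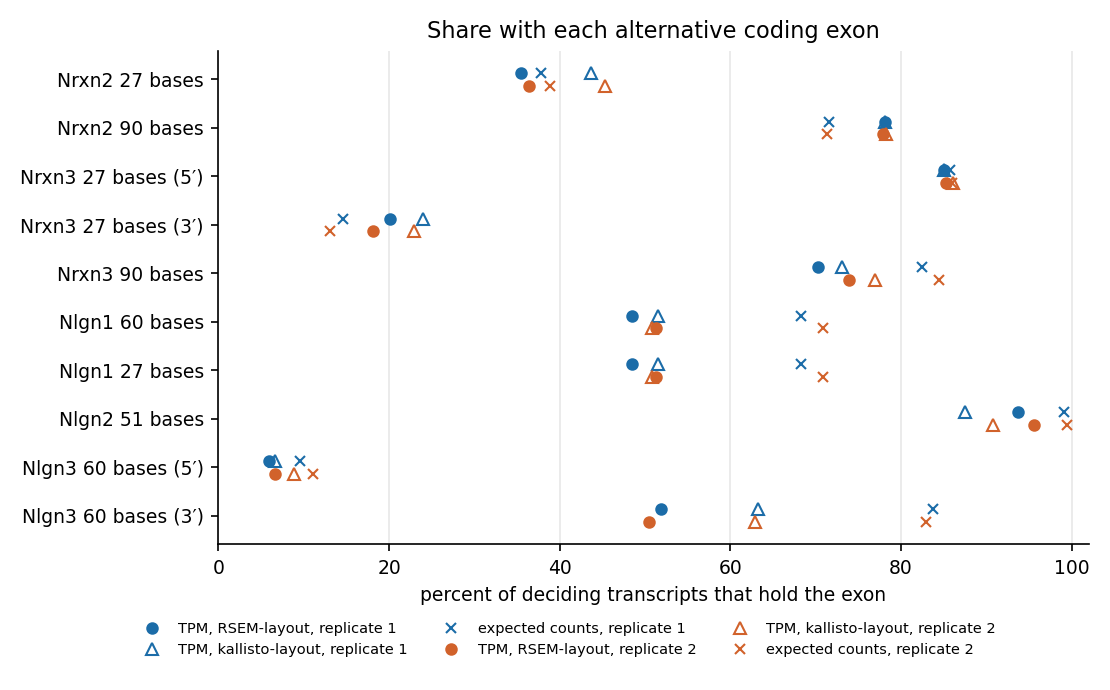
Percent of the deciding transcripts, those annotated with or without the exon, that hold each alternative coding exon; circles are TPM of the RSEM-layout table, triangles TPM of the kallisto-layout table and crosses expected counts, blue replicate 1 and orange replicate 2. The points of the Nrxn2 90-base exon lie between 71.4% and 78.2%, and those of the Nlgn3 3′ exon spread from 50.4% to 83.7%.

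The LRRTM genes are compact in structure, with at most 4 exons in any annotated transcript. In Lrrtm4, transcripts with the long coding sequence of 1770 or 1773 bases had 13.6 and 12.7 TPM and those with the short one of 1554 or 1557 bases had 9.49 and 7.61 TPM. The long form made up 60.7% ± 2.63, and 59.2% ± 3.01 in the kallisto-layout table. Lrrtm2 had 88.6% ± 0.310 and Lrrtm1 88.1% ± 1.98 of TPM in complete coding transcripts.

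In Lrrtm3, the only coding transcript held 37.3% and 45.4% of TPM (41.4% ± 5.73), a retained-intron transcript 34.5% ± 0.705, and a pair of short processed transcripts the rest. By expected counts the coding transcript held 61.0% and 65.8%. In the kallisto-layout table, the coding transcript held 23.6% and 22.9% of TPM and the retained-intron transcript 23.7% and 17.7%. A low share was not particular to Lrrtm3: complete coding transcripts of Nlgn3 held 49.4% and 49.7% of its TPM, and 34.6% and 32.3% in the kallisto-layout table. The leading transcript was the same in both libraries and both tables for 7 of the 9 genes. The exceptions were Nlgn3, where Nlgn3-203 led in the RSEM-layout table and Nlgn3-205 in the kallisto-layout table, and Lrrtm3, where Lrrtm3-201 and Lrrtm3-202 did.

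**Figure D3:**
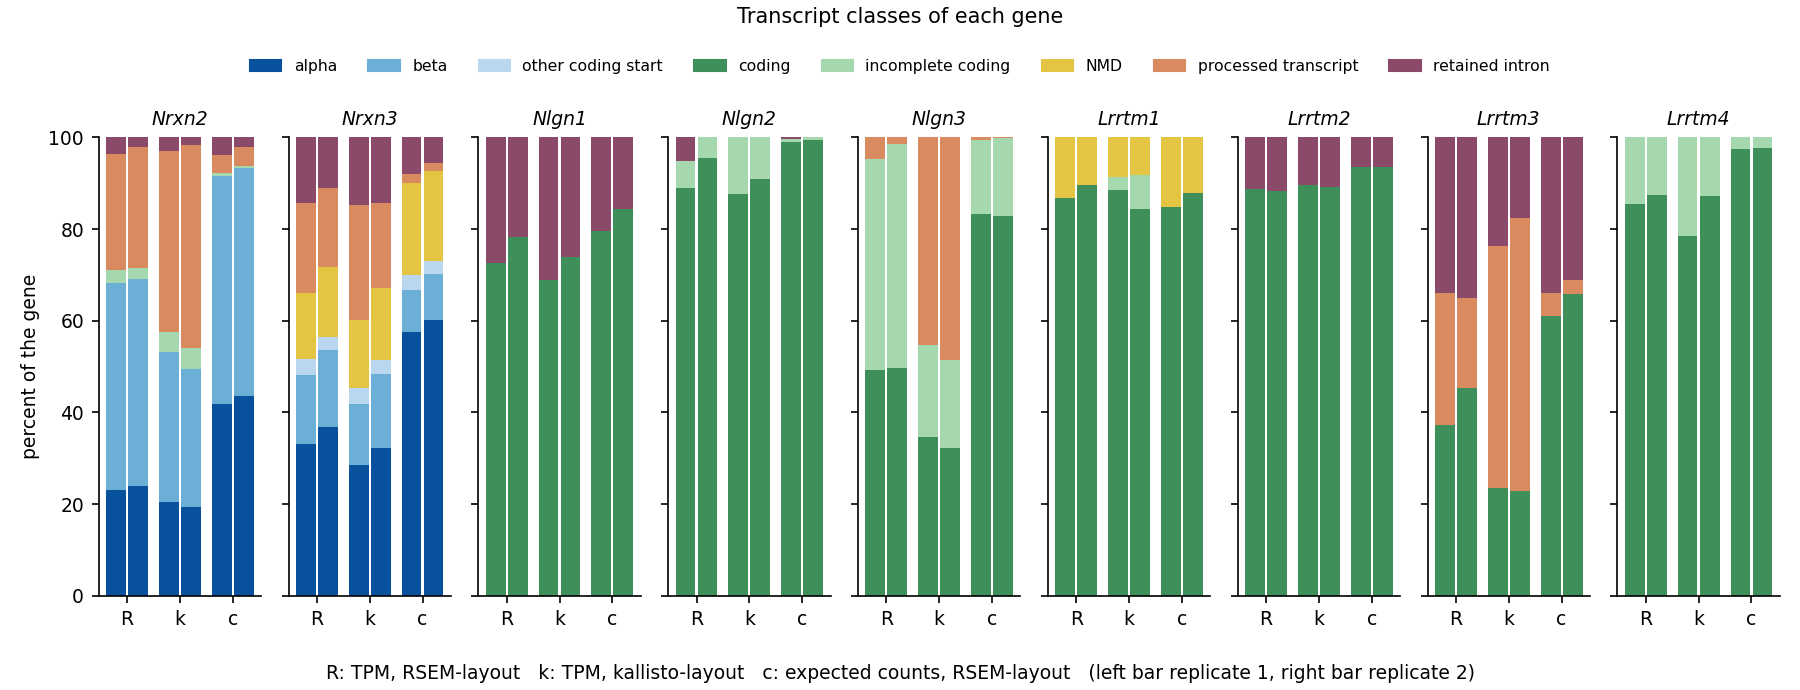
Share of each gene held by each transcript class in percent, as stacked bars; R is TPM of the RSEM-layout table, k TPM of the kallisto-layout table and c expected counts, with replicate 1 on the left and replicate 2 on the right of each pair (NMD, annotated target of nonsense-mediated decay). The processed transcripts of Nlgn3 and Lrrtm3, orange, are wide in the k bars and narrow in the c bars.

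The libraries were compared gene by gene as the log2 ratio of replicate 2 over replicate 1 in counts, after TMM scaling. A gene was called higher or lower where the exact 95% interval of its counts excluded 0. These intervals cover counting error only, and with 1 library on either side no p-value was computed. Of the 9 genes, 4 were called higher and 1 lower. Over all 17965 genes that reached a mean of 10 counts, 17.6% were called higher and 18.7% lower, and over nuclear protein-coding genes 20.2% and 14.8%. The genes described here are deeply counted, and among the 4937 coding genes that reached a mean of 1000 counts, 35.6% were called higher and 21.6% lower. Counts of 4 and 1 of 9 lie near those shares, and the median ratio of the 9 genes was -0.01 beside 0.03 over nuclear protein-coding genes.

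Nrxn3 was lower: its counts were 8161 and 9266 in replicates 1 and 2, and its log2 ratio was -0.18 (interval -0.23 to -0.14). Nlgn3 had 4791 and 6797 counts, a ratio of 0.14 (0.08 to 0.19), and was higher. Among the LRRTM genes, Lrrtm1 had 1115 and 1594 counts with a ratio of 0.15 (0.04 to 0.26), Lrrtm2 1905 and 2727 with 0.15 (0.06 to 0.24), and Lrrtm3 1235 and 1773 with 0.15 (0.05 to 0.26). Nlgn3 and these 3 LRRTM genes thus lay on the same side. The other genes of postsynaptic proteins, Nlgn1, Nlgn2 and Lrrtm4, had ratios below 0 and were not called, as given below.

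Nrxn2 had 11793 and 15061 counts with a ratio of -0.01 (-0.05 to 0.02). Nlgn1 had 3075 and 3901 counts with -0.02 (-0.09 to 0.04), and Nlgn2 had 7807 and 9873 with -0.03 (-0.07 to 0.01). Lrrtm4 had 1128 and 1363 counts with -0.09 (-0.21 to 0.02). None of these 4 intervals excluded 0. All 9 ratios lay between -0.18 and 0.15, a range that held 74.8% of the 4937 deeply counted coding genes.

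Scaling by the ERCC spike-ins moved every ratio down by 0.10, and the median over all tested genes with it. No member was then called higher and 5 were called lower (Nrxn2, Nrxn3, Nlgn1, Nlgn2 and Lrrtm4), beside 6.34% higher and 31.5% lower over all genes. The direction of the 4 genes called higher held but their intervals included 0, at 0.04 for Nlgn3 and 0.05 for Lrrtm1, Lrrtm2 and Lrrtm3. Scaling to nuclear protein-coding genes or to total counts called 4 genes lower in place of 1 (Nrxn2, Nrxn3, Nlgn2 and Lrrtm4). Over all tested genes, 21.7% were lower and 13.9% higher with coding-gene scaling, and 20.8% and 14.7% with total counts. Deposited TPM, which is scaled over all listed features, was lower in replicate 2 for 6 of the 9 genes, Lrrtm3 included. Nuclear protein-coding genes together held 46.6% of TPM in replicate 1 and 44.4% in replicate 2. The share of all genes with lower TPM is not given here, so the 6 of 9 are no result about these genes.

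**Figure D4:**
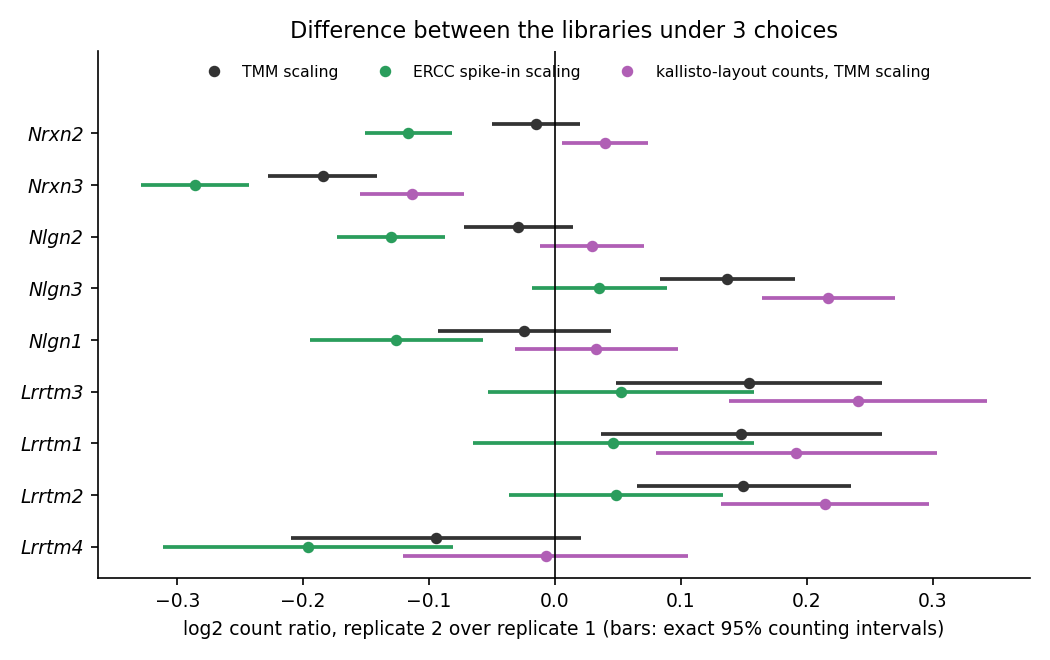
Log2 count ratio of replicate 2 over replicate 1 for each gene, with exact 95% counting intervals as bars, under TMM scaling (black), ERCC spike-in scaling (green) and from kallisto-layout counts with TMM scaling (purple). Nrxn3 lies below 0 under all 3, and Nlgn3, Lrrtm1, Lrrtm2 and Lrrtm3 lie above 0 in all 3, with intervals that include 0 under spike-in scaling.

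The transcript classes of a gene did not move alike. The alpha transcript of Nrxn3 had a ratio of -0.12 (-0.18 to -0.06) and its retained-intron transcripts -0.68 (-0.85 to -0.52). In Nrxn2 these values were 0.04 (-0.01 to 0.10) and -0.85 (-1.06 to -0.64), and in Nlgn1 the coding transcripts had 0.06 (-0.02 to 0.14) and the retained-intron transcript -0.41 (-0.58 to -0.25). Of the 9 retained-intron transcripts of these genes that reached a mean of 10 counts, 7 had a ratio below 0, and the median was -0.57 beside -0.59 over all 11753 such transcripts, of which 81.8% lay below 0. Lrrtm3 and Lrrtm2 held the exceptions, with class ratios of 0.02 (-0.16 to 0.21) and 0.19 (-0.15 to 0.53). All these intervals leave out the error of dividing reads among transcripts. In the kallisto-layout table, the retained-intron ratios were -0.35 in Nrxn3, outside the interval above, -0.72 in Nrxn2 and -0.26 in Nlgn1. The alpha ratios there were -0.06 in Nrxn3 and 0.09 in Nrxn2, and the coding ratio of Nlgn1 was 0.11. The retained-intron ratios of Lrrtm3 and Lrrtm2 there were -0.04 and 0.29.

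Genomic span ranges widely among these genes. Lrrtm2 spans less than 10 kb, Nlgn2, Nlgn3 and Lrrtm1 span 10 to 30 kb, Nrxn2 and Lrrtm3 span 100 to 300 kb, and Nrxn3, Nlgn1 and Lrrtm4 span more than 300 kb. The median ratio over all tested coding genes was 0.09 below 10 kb, 0.04 at 10 to 30 kb, 0.01 at 30 to 100 kb, -0.02 at 100 to 300 kb and -0.04 above 300 kb. Lrrtm3 lay above the middle 50% of its span class, at 0.15 against an upper quartile of 0.09, and Nrxn3 below that of its class, at -0.18 against a lower quartile of -0.15. The other 7 genes lay inside it.

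**Figure D5:**
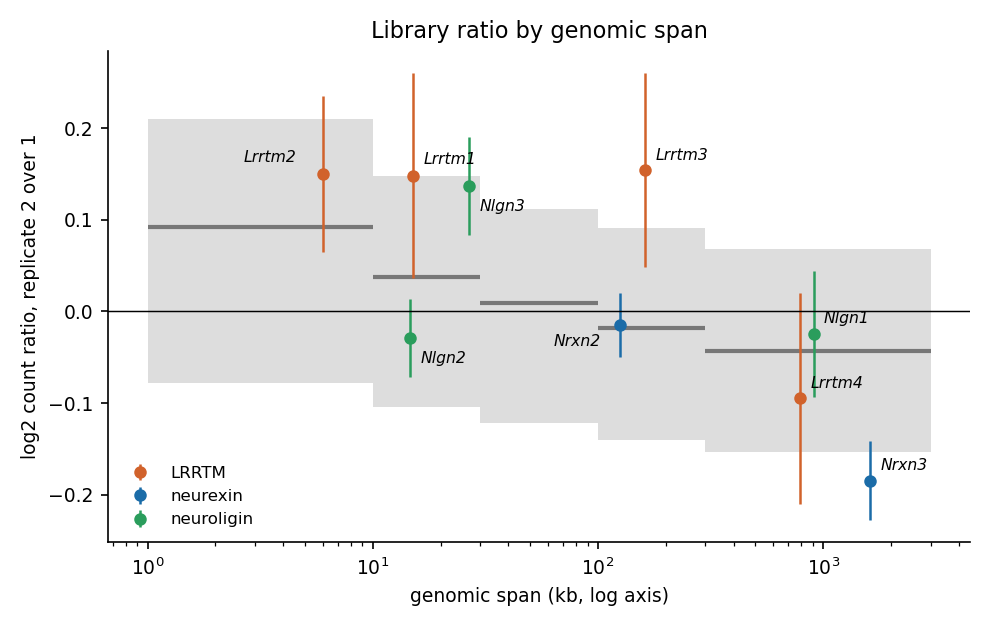
Log2 count ratio of replicate 2 over replicate 1 against genomic span on a log axis, with exact 95% counting intervals as bars; grey lines and bands are the median and the middle 50% of tested nuclear protein-coding genes in each span class, the first class being all genes under 10 kb. The 3 genes above 300 kb have ratios of -0.02, -0.09 and -0.18.

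Each of 3 LRRTM genes lies inside an alpha-catenin gene on the opposite strand, a cell adhesion gene of the cadherin complex. Lrrtm1 (chromosome 6, 77242689 to 77257791, plus strand) lies in Ctnna2, Lrrtm2 (chromosome 18, 35209003 to 35215024, minus strand) in Ctnna1, and Lrrtm3 (chromosome 10, 63928472 to 64090277, minus strand) in Ctnna3. Lrrtm4 (chromosome 6, 80018877 to 80810143, plus strand) has no such host. In the RSEM-layout table, the host was above its guest for Lrrtm1, near it for Lrrtm2 and far below it for Lrrtm3. Ctnna2 had 48.7 ± 2.86 TPM beside 30.6 for Lrrtm1, and Ctnna1 had 24.1 ± 1.44 beside 26.6 for Lrrtm2. Ctnna3 had 1.09 ± 0.0919 beside 34.3 for Lrrtm3. In the kallisto-layout table, Ctnna1 was above Lrrtm2, at 49.5 and 51.6 TPM beside 36.0 and 38.9. The other pairs kept their direction there.

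Whether the counting used strand is not given in the sources used, so reads of overlapping exons on opposite strands may not be told apart. Lrrtm2 shared 95 of its 6022 exon bases with Ctnna1, which was itself higher in replicate 2 by 0.19 (0.07 to 0.31), and Lrrtm1 and Lrrtm3 shared none with their hosts. Nlgn3 shared 3823 of 9271 exon bases with Gm21986, a processed transcript on the same strand with 48 and 37 counts. Strand could not separate reads of these shared bases, so the division of counts between them is uncertain. Other overlaps of exons held few counts, at most 61 in a library, for an antisense gene of Nlgn1.

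The ligands, partners and regulators of these proteins were all detected, 71 of 71 genes, with 17 higher, 17 lower and 37 not called in replicate 2 and a median ratio of 0.02. Over all tested genes, 17.6% were higher and 18.7% lower, and over coding genes with a mean of 1000 counts or more, 35.6% and 21.6%. With spike-in scaling, 3 of the 71 were higher and 36 lower, beside 6.34% and 31.5% of all tested genes. The directions below are thus relative to the median gene under TMM, and the counts of each list stand beside these shares. Of the partners named as higher below, only C1ql3 stayed so with spike-ins, and Clstn1 became lower, whereas all those named as lower stayed so. Of 8 secreted ligands of neurexins, C1ql3 (52.9 ± 3.85 TPM) and Nxph4 were higher, and the other 6 were not called. Cbln2, a cerebellin, had 21.9 ± 0.177 TPM, Nxph1, a neurexophilin, 18.0 ± 1.29 TPM and Nxph3 14.1 ± 0.134 TPM. Each of these ligands was below Nrxn2 and Nrxn3 in mean TPM.

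The inhibitors Mdga1 and Mdga2 bind neuroligins on the same membrane and block their contact with neurexins. Both genes of this list of 2 were called lower, beside 21.6% of coding genes with a mean of 1000 counts or more. Mdga2 had 26.8 and 18.7 TPM with a ratio of -0.15 (-0.25 to -0.06), and Mdga1 had 10.9 and 11.0 TPM with -0.14 (-0.26 to -0.02). The call of Mdga1 thus rests on its count ratio, as its TPM in the RSEM-layout table was not lower. Without the filter on low counts the Mdga1 interval reached 0.0014 and the gene was not called. Their TPM lay below that of all 3 neuroligins. Adam10, a protease that sheds neuroligins and neurexins, had 29.7 ± 0.742 TPM and a ratio of 0.12 (0.03 to 0.20), and was higher.

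All 7 other surface partners of neurexins were called, 3 higher and 4 lower. Clstn1, a calsyntenin, had 603 ± 9.80 TPM and was higher by 0.05, Clstn3 had 161 ± 7.18 TPM and was higher by 0.07, and the latrophilins Adgrl1 (163 ± 19.0 TPM) and Adgrl3 (87.5 ± 12.2 TPM) were lower, with ratios of -0.06 and -0.08. Of 30 other trans-synaptic adhesion genes, 5 were higher, 8 lower and 17 not called. The receptor phosphatases Ptprs (286 ± 45.7 TPM) and Ptprd (134 ± 30.1 TPM) were lower, with ratios of -0.12 and -0.30. Cadm3, a nectin-like adhesion protein, had 196 ± 11.3 TPM and was not called, and Lrrc4b, a netrin-G ligand family protein, had 127 ± 3.35 TPM and was higher by 0.09.

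Of 13 intracellular partners, 5 were higher, 1 lower and 7 not called. The scaffold Dlg4 (PSD-95), which binds the tail of neuroligins, had 328 ± 26.7 TPM with a ratio of -0.01 (-0.04 to 0.03), and its relative Dlg2 had 130 ± 15.6 TPM with -0.02 (-0.06 to 0.02). Dlg1, another scaffold of the same family, had 80.8 ± 5.40 TPM and was higher by 0.08.

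The splicing regulators that act on the site 4 exon include the KHDRBS (SLM and SAM68) family. Khdrbs3 had 135 ± 1.90 TPM and was not called, Khdrbs1 40.7 ± 1.38 TPM and was not called, and Khdrbs2 had 6.94 and 4.89 TPM and was lower, with a ratio of -0.48 (-0.74 to -0.22). Of the other regulators listed, Rbfox1 had 141 ± 10.7 TPM, Rbfox3 140.4 ± 15.2 TPM and Rbfox2 112 ± 11.7 TPM, of which Rbfox2 was lower, with a ratio of -0.09. Beside these values stand the site 4 shares given above, and no relation can be tested with 2 libraries.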

How the data were processed

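Per the labels, total RNA was column-purified and sequenced in 2 libraries of 1 group. Per the deposited file lists, values were made on the mm10 assembly with GENCODE M21. The aligner, tool versions and use of strand are not given in the sources used. The gene table and first transcript table, RSEM-layout per the file headers, hold the authors' expected counts, estimated by dividing reads among transcripts, and TPM values scaled by the authors over all listed features. Their interval bounds and posterior mean TPM are a deposited signal, and the percent of a gene per transcript is a deposited column that was recomputed here from TPM. The second transcript table, kallisto-layout per the file headers, also holds deposited estimated counts and TPM. From the file headers' lengths, effective length is 99 bases below length in the first tables and 346.1 and 344.1 bases below in the second. For a given count, this raises the TPM of short transcripts there. The tables also differ in the counts given to short transcripts: Nlgn3-205 had 8.81 and 12.95 in the first and 189 and 281 in the second. The part of either in the higher TPM was not tested.

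Annotated genes were 55536 of 81881 rows; 97 were spike-ins and 26248 tRNA entries, which with the spike-ins held 0.435% and 0.460% of counts. Expected counts were rounded, 0.5 was added, and ratios were scaled by TMM (edgeR 4.0.16, R 4.3.3) on genes that reached a mean of 10 counts, whose effective library sizes differed by 0.37 in log2. Exact Clopper-Pearson 95% intervals came from scipy 1.17.1 and cover counting error only, as reads that carry no molecular identifier are not independent. The interval calculation was run on simulated counts that held counting error alone. That run cannot show how the intervals behave with read division among transcripts or spread between libraries. Isoform classes and alternative coding exons came from the annotation; an exon was counted as alternative where coding transcripts span it with and without it. Any loss of CAST reads against the reference was not measured. All 9 genes were named, with up to 4 partners per list by mean TPM, and more where a few were singled out after their values were seen. DESeq2 1.42.0 size factors, spike-in, total-count and coding-gene scaling and the second table were alternatives. The members and lists were chosen with earlier results of these data known. Other members of these families were not analysed here, and some named partners, markers and sequences are not reported here.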

Additional observations from a re-analysis of the deposited data

How the results depend on the processing

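No paired analysis was possible because the series has 1 group. All 9 genes were detected at a TPM threshold of 0.5 or 5, in the kallisto-layout table and in either library alone. The 4 higher calls held under DESeq2 size factors, total counts, coding-gene scaling and no filter, became 5 in the kallisto-layout table and 0 with spike-ins. The 1 lower call became 5 with spike-ins and 4 with total counts or coding genes, where 20.8% and 21.7% of all tested genes were lower. The kallisto-layout table turned the ratio of Nrxn2 to 0.040, Nlgn2 to 0.029 and Nlgn1 to 0.033, and no filter turned Nrxn2 to 0.0093; Nrxn2 in the kallisto-layout table alone of these had an interval without 0. The spike-in cause was not tested.

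In levels, the kallisto-layout table reversed Nlgn1 over Lrrtm3 (log2 -0.31) and Lrrtm2 over Lrrtm4 (-0.030); the latter ranged from -0.034 to 0.20 over the single libraries. Transcripts of 1000 bases or more, chosen after seeing the data, reversed Nrxn3 over Nlgn2 (-0.080, and -0.022 in the kallisto-layout table) and Lrrtm3 over Lrrtm1 (-0.24 and -0.22). Rescaling to coding genes raised all 9 levels and kept their order.

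Isoform shares moved with the table: in the kallisto-layout table the alpha share was 38.9% in Nrxn2 and 67.3% in Nrxn3, the site 4 exon 78.1% and 75.0%, the Nlgn2 exon 89.2%, and the Nlgn3 exons 7.76% (5′) and 63.1% (3′). As shares of counts, added after seeing the data, these were 46.1% and 86.0% (alpha), 71.4% and 83.5% (site 4), 69.6% (Nlgn1), 99.3% (Nlgn2), and 10.3% and 83.3% (Nlgn3). With complete coding transcripts only, also added later, they were 100% in Nlgn2, and 12.3% and 100% in Nlgn3. Count shares weight long transcripts, and complete transcripts leave out the models without the exon.

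Depth limits the smallest differences: Lrrtm4, the gene with fewest counts over both libraries, had an interval of -0.21 to 0.02.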
